A study of Rattus norvegicus with 6 samples.

Results

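Complement transcripts were examined in rat brain after neonatal hypoxia-ischemia (HI). The genes are 9 in number, C1qa, C1qb, C1qc, C1s, C3, Cfb, C3ar1, C5ar1 and Serping1, taken by symbol from a table of 19382 genes, and each had 1 row. The study sequenced RNA of brain tissue in 6 libraries. Of these, 3 came from SD rats put through HI lasting 2.5 h when they were 7 days old, and 3 from control rats, called normal by the submitters. No genetic change or drug is named for the sequenced groups, and the labels give neither the brain region, the delay from injury to sampling, nor the age of the controls. They also do not say that each library came from its own animal, so each p-value refers to the spread among the 6 libraries, and part of that spread may be technical.

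Complement is a cascade of blood and tissue proteins that marks targets for phagocytes and calls in inflammatory cells. In the classical pathway, C1q, built of chains A, B and C, recognises a target. Its partner protease C1r then activates the protease C1s, which cleaves C4 and C2. All routes meet at C3, and the alternative pathway, in which factor B binds cleaved C3, amplifies the deposit. The released fragments C3a and C5a act on the receptors C3ar1 and C5ar1, and C1 inhibitor, the product of Serping1, blocks C1r and C1s. In the brain C1q is made mainly by microglia, and in developing mice C1q and C3 take part in the removal of synapses.

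Libraries held 13922663 to 14927469 estimated reads. The 3 HI libraries had 1989 to 3546 CPM (the usual depth-scaled read count, here with a TMM factor) summed over 6 neuron markers, and the controls 5077 to 6165 CPM, so the tissue label fitted its markers. Choroid plexus markers set libraries apart across the groups. Their sum over 8 genes was 223 CPM in HI 1, 8393 CPM in HI 2 and 15700 CPM in HI 3, against 29.8 CPM in control 1, 2309 CPM in control 2 and 32.9 CPM in control 3. HI 2, HI 3 and control 3 carried 1356 to 1824 Y-linked reads, and the other libraries at most 3. Since the samples are bulk tissue, fewer cells of a type and less RNA per cell cannot be told apart in any value given here.

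All 9 complement genes rose in HI, by 3.13-fold for C3ar1 to 25.05-fold for Cfb. Their edgeR quasi-likelihood adjusted p lay between 0.0196 and 0.0492, and every HI library stood above every control for each. Among all 14959 genes tested, 6.83% were higher in HI at an adjusted p below 0.05 and 13.9% changed in either direction, and 21.5% had every HI library above every control. Log2 fold changes ran from 1.65 for C3ar1 to 4.65 for Cfb, with a median of 2.90, beside a median of 0.04 over all genes tested. The genes were chosen with earlier results of these data known, so that count is a description. All 9 passed the low-count filter, C5ar1 through its HI libraries alone (0 of 3 controls over the cutoff of 0.689 CPM). The calls also rested on single libraries. Without control 1, without control 2 or without HI 2, edgeR called 0 of the 9 genes, and it called 0, 1 and 0 of all genes in these same fits. In each of these fits the 9 genes had an unadjusted p below 0.05, where 13.1%, 13.4% and 14.5% of all genes were higher in HI at that level.

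**Figure D1:**
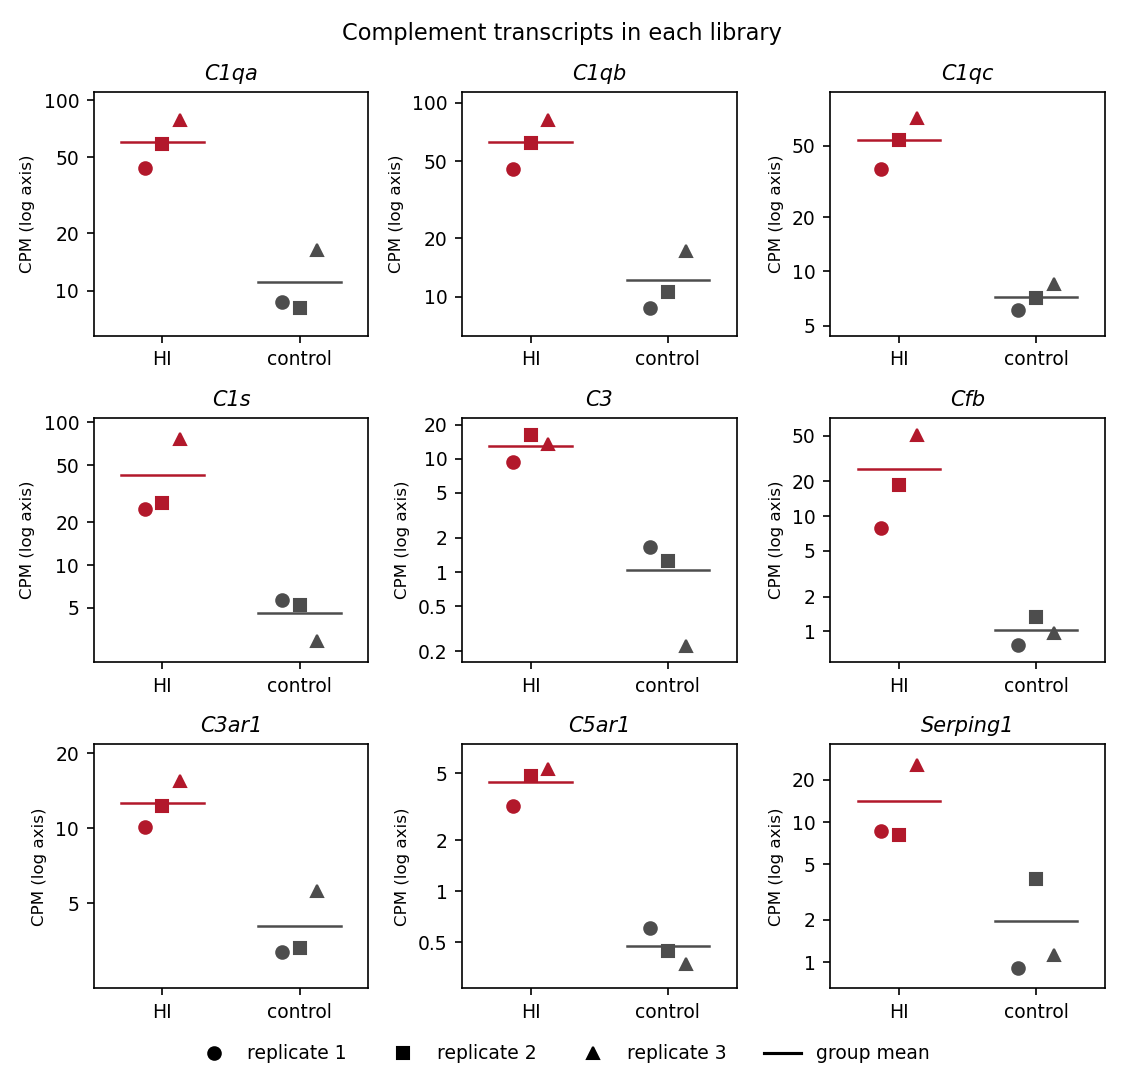
CPM of each complement gene in each of the 3 HI and 3 control libraries, on a logarithmic axis with a scale of its own per gene; lines are group means. For all 9 genes the lowest HI library stands above the highest control, by a ratio of 1.80 for C3ar1 up to 6.0 for Cfb.

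The 3 chains of C1q, the recognition part of the first complex, all rose. C1qa stood at 43.9, 58.6 and 78.8 CPM in HI 1, 2 and 3, against 8.71, 8.10 and 16.4 CPM in controls 1, 2 and 3. C1qb stood at 45.3, 62.2 and 81.1 CPM in the HI libraries, against 8.78, 10.6 and 17.1 CPM in the controls. C1qc stood at 37.2, 53.8 and 70.8 CPM in the HI libraries, against 6.13, 7.14 and 8.46 CPM in the controls. HI 1 was the lowest and HI 3 the highest HI library for each chain, and control 3 the highest control. The log2 fold changes were 2.45 ± 0.35 for C1qa, 2.37 ± 0.32 for C1qb and 2.90 ± 0.27 for C1qc (SE, n = 3 per group), with edgeR adjusted p of 0.0215, 0.0215 and 0.0196.

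C1qb, C1qc and C1qa lie in that order next to each other on chromosome 5 of the GRCr8 rat assembly. Profiles were compared by the root mean square difference of log2 levels, each gene centred on its own mean over the 6 libraries. Of the 36 pairs among the 9 genes, C1qa and C1qb were closest at 0.13, followed by C1qb with C1qc at 0.28 and C1qa with C1qc at 0.29. C1qc lay nearer than to either chain to Cd74 at 0.175 and Clec4a1 at 0.198, which are outside the 9, and its distance to C5ar1 was 0.30. The widest pair was C3 with C3ar1 at 1.44. The level of C1qa relative to the mean of C1qb and C1qc had a log2 ratio of 0.05 ± 0.04 in HI and 0.15 ± 0.25 in the controls (SD, n = 3 each). This ratio differed by -0.10, less than the spread between controls (exact permutation test, two-sided, p = 0.6, and 0.7 adjusted over 3 ratios).

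Promoter sequences are printed for C1qa and C1qb, the pair with the closest profiles, and for C3 and C3ar1, the pair with the widest. They are the 250 bases before the annotated start, 5′ to 3′ in the direction of transcription, from RefSeq, build GRCr8. An entry was found for these 4 genes, and not for C1qc, C1s, Cfb, C5ar1 or Serping1. Capitals mark matches on either strand to 1 of 6 motifs of factors active in immune cells, chosen after the sequences were seen.
C1qa promoter, chr5:154419934-154420183, minus strand: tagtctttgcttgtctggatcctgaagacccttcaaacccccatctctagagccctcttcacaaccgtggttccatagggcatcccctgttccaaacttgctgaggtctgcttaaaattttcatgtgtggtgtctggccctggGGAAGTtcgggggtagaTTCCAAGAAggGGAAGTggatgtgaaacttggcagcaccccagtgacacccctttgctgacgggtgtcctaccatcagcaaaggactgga
C1qb promoter, chr5:154407828-154408077, minus strand: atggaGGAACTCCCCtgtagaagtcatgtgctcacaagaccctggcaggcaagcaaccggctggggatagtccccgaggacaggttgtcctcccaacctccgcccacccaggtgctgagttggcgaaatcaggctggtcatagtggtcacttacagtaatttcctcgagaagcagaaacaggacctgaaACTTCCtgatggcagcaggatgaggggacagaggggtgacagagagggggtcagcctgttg
C3 promoter, chr9:2201340-2201589, minus strand: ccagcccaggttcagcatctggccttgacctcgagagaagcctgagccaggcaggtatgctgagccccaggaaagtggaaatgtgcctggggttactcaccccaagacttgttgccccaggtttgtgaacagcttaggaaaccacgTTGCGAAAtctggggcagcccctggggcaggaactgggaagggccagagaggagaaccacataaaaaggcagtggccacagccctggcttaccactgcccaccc
C3ar1 promoter, chr4:157756531-157756780, minus strand: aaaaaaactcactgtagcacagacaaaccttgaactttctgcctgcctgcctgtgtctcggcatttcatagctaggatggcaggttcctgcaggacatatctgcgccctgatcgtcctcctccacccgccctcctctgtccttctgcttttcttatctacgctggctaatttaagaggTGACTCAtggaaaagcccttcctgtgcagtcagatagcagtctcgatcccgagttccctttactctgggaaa

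The motifs searched were GGAAGT, the core of ETS sites such as those of the myeloid factor PU.1, TTGCNNAA for C/EBP, TGANTCA for AP-1, TTCNNNGAA for STAT, the interferon-stimulated response element and the NF-kB decamer. GGAAGT occurred in C1qa 107 to 102 and 79 to 74 bases before the start, and in C1qb on the other strand 61 to 56 bases before it. The same window of all 33469 promoters held GGAAGT in 19.2%. C1qa also held a STAT match 90 to 82 bases before the start, a motif found in 7.67% of promoters, and C1qb an NF-kB match 245 to 236 bases before it, found in 6.33%. In C3 a C/EBP match lay 104 to 97 bases before the start, a motif found in 9.22% of promoters. In C3ar1 an AP-1 match lay 72 to 66 bases before the start, a motif found in 6.34%. No matches overlapped, and the interferon element, present in 3.41% of promoters, was found in none of the 4 windows. These matches are descriptions of letters and no measure of binding.

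C1s, the protease that C1q sets to work, rose with a wider spread. It stood at 24.9, 27.2 and 76.4 CPM in HI 1, 2 and 3, against 5.68, 5.23 and 2.92 CPM in controls 1, 2 and 3. HI 3 was 2.93 times the mean of HI 1 and HI 2, and control 3 was the lowest control, the reverse of its place for the C1q chains. The log2 fold change was 3.21 ± 0.53 (SE, edgeR adjusted p = 0.0238), 2.50 without HI 3, and 2.42 with the choroid plexus level as a covariate (adjusted p = 0.0875). C1r, the neighbour of C1s on chromosome 4 and its partner protease, stood at 27.1, 40.9 and 94.3 CPM in the HI libraries, against 9.09, 13.5 and 2.1 CPM in the controls. HI 3 was again highest and control 3 lowest, and its edgeR adjusted p of 0.0537 missed the threshold, at a log2 fold change of 2.72 ± 0.73 (SE).

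Serping1 encodes C1 inhibitor, which inactivates both proteases. Its level was 8.69, 8.10 and 25.6 CPM in HI 1, 2 and 3, against 0.909, 3.90 and 1.12 CPM in controls 1, 2 and 3. The groups were separate, but control 2 was well above the other controls and HI 3 was 3.05 times the mean of the other HI libraries. Its log2 fold change was 2.83 ± 0.73 (SE), and its edgeR adjusted p of 0.0492 was the highest of the 9. Among 16 alternative fits 5 called it, and its log2 fold change was 3.75 without control 2, 2.08 without HI 3 and 1.88 with the choroid plexus covariate (adjusted p = 0.136).

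The balance of C1s to its inhibitor was compared within each library. The log2 ratio of C1s to Serping1 was 1.52, 1.75 and 1.58 in HI 1, 2 and 3, against 2.64, 0.42 and 1.38 in controls 1, 2 and 3. The HI values lay close together inside the range of the controls. The difference of 0.13 was below the spread between controls of 1.11 (SD, exact permutation test, two-sided, p = 0.7, and 0.7 adjusted over 3 ratios), and it was -0.40 without control 2.

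C3, on which the pathways converge, stood at 9.43, 16.3 and 13.5 CPM in HI 1, 2 and 3, against 1.67, 1.25 and 0.225 CPM in controls 1, 2 and 3. HI 2 was highest, the only one of the 9 genes not highest in HI 3, and control 3 held only 3 reads, which is as many as an observed 0 would still permit. The log2 fold change was 3.63 ± 0.60 (SE, edgeR adjusted p = 0.0238), from 22, 17 and 3 control reads. Cfb, the protease of the alternative pathway, showed the largest fold change of the 9. It stood at 7.96, 18.8 and 50.5 CPM in HI 1, 2 and 3, against 0.757, 1.32 and 0.973 CPM in the controls, which is 119, 292 and 833 reads against 10, 18 and 13. The highest control was 1.75 times the lowest, while HI 3 was 6.34 times HI 1. Its log2 fold change was 4.65 ± 0.76 (SE, edgeR adjusted p = 0.0235), 3.70 without HI 3, 3.97 with Y-linked reads as a term and 3.12 with the choroid plexus level as a covariate (edgeR adjusted p = 0.0747). C2, the neighbour of Cfb on chromosome 20 and its counterpart in the classical pathway, rose as well, with 24.5 ± 10.3 CPM in HI and 6.80 ± 2.79 CPM in controls (SD, n = 3 each, edgeR adjusted p = 0.035).

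The receptors for the fragments of C3 and C5 rose by unequal amounts. C3ar1 stood at 10.1, 12.3 and 15.5 CPM in HI 1, 2 and 3, against 3.18, 3.31 and 5.62 CPM in controls 1, 2 and 3. This was the smallest fold change of the 9, a log2 value of 1.65 ± 0.30 (SE, edgeR adjusted p = 0.027), with the same order of libraries in HI as for the C1q chains. C5ar1 stood at 3.21, 4.82 and 5.27 CPM in the HI libraries, against 0.606, 0.442 and 0.374 CPM in the controls. Its log2 fold change was 3.20 ± 0.36 (SE, edgeR adjusted p = 0.0197), from 8, 6 and 5 control reads. C5ar2, the neighbouring gene on chromosome 1 for a second receptor of C5a, missed the threshold (edgeR adjusted p = 0.0596, log2 fold change 1.66 ± 0.47, SE).

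**Figure D2:**
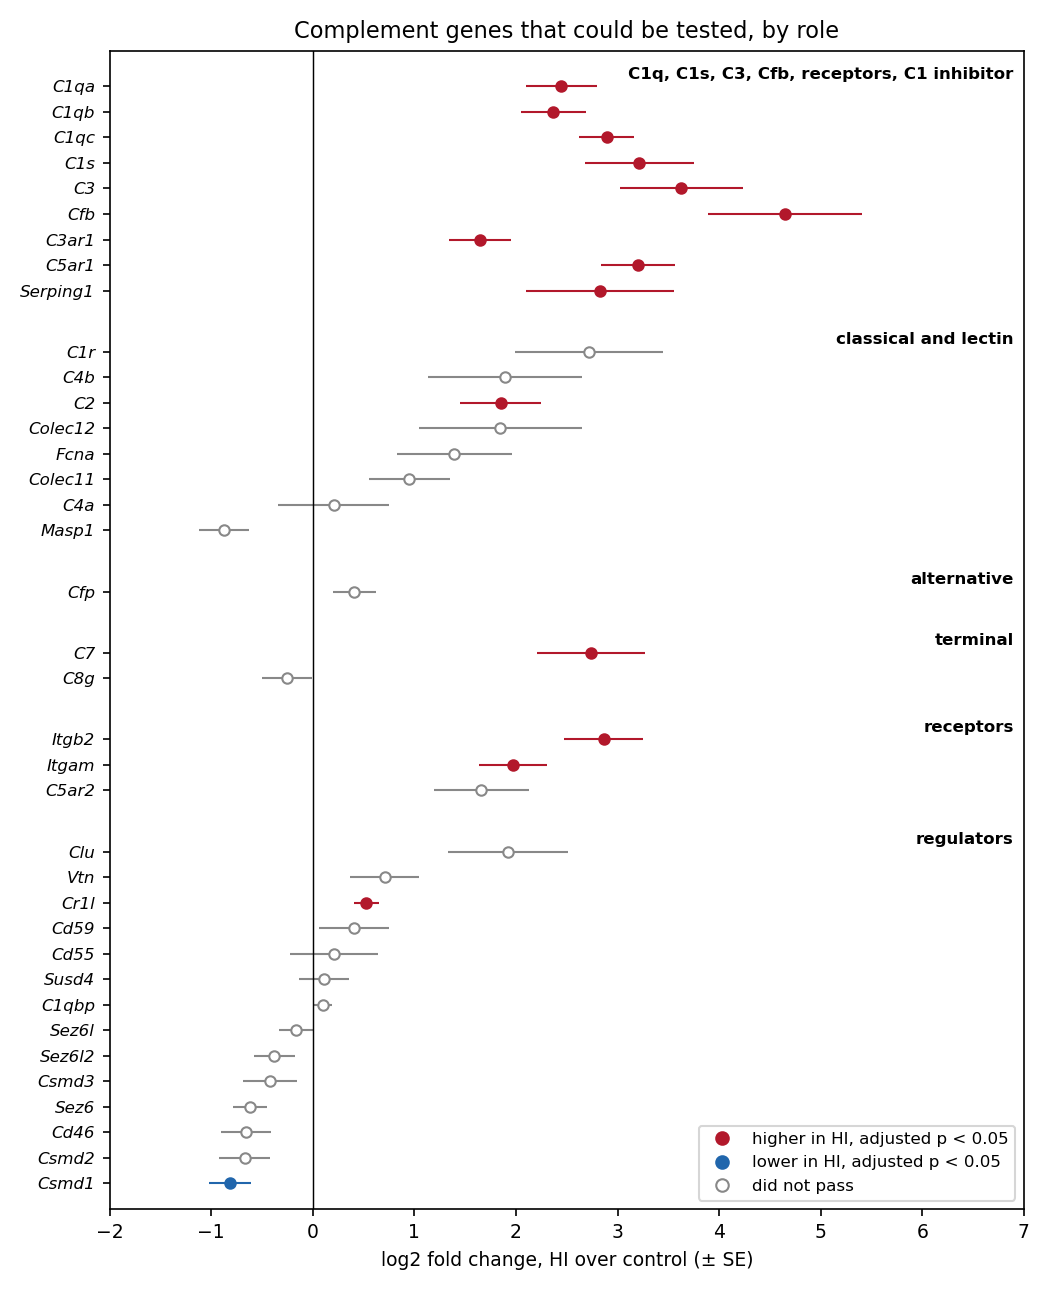
Log2 fold change of HI over control with its SE for the 9 genes and for other complement genes that could be tested, ordered by role; filled points passed the edgeR test. Itgax is not drawn because its controls held 2 reads in all. The 9 genes lie between 1.65 and 4.65, and the regulators spread on both sides of 0.

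Other genes of the complement system were taken from a list of 47, of which 30 could be tested. Of these 7 rose and 1 fell in HI, where 6.83% of all genes rose and 7.04% fell, and the median log2 fold change was 0.47. Among those that rose were C2, the pore component C7, the regulator Cr1l, and the chains Itgam, Itgb2 and Itgax of the receptors for cleaved C3. Itgb2 averaged 21.2 ± 8.02 CPM in HI and 2.91 ± 0.86 CPM in controls (SD, n = 3 each), and Itgam 31.5 ± 12.1 CPM in HI and 8.05 ± 1.87 CPM in controls. Itgax held 16, 140 and 88 reads in HI 1, 2 and 3 against 0, 1 and 1 in the controls, and could be tested only through its HI libraries. C7, whose reads were partly shared with similar genes and are uncertain, averaged 10.6 ± 6.68 CPM in HI and 1.59 ± 0.51 CPM in controls. It was called in 7 of 16 alternative fits, and its log2 fold change of 2.74 was 2.12 without HI 3 (edgeR adjusted p = 0.0502) and 1.7 with the choroid plexus covariate (0.0986).

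Most regulators did not pass the test. Of 15 tested 2 rose and 1 fell, beside 6.83% and 7.04% of all genes, with a median log2 fold change of 0.10. Cr1l, the membrane regulator known as Crry, averaged 52.8 ± 4.65 CPM in HI and 36.6 ± 3.56 CPM in controls (SD, n = 3 each, edgeR adjusted p = 0.0405). The gene that fell was Csmd1, a large neuronal membrane protein that inhibits complement, with 36.7 ± 9.26 CPM in HI and 64.7 ± 9.21 CPM in controls (edgeR adjusted p = 0.0475). Csmd1 was called in 4 of 16 alternative fits, and not with upper-quartile factors, total counts or the replicate block (edgeR adjusted p = 0.0544, 0.0659 and 0.0907). The related neuronal gene Sez6 and the lectin pathway protease gene Masp1 missed the threshold (edgeR adjusted p = 0.0527 and 0.0605), at log2 fold changes of -0.62 ± 0.16 and -0.88 ± 0.25 (SE). Neuron markers also differed between the groups. Of 6, 4 fell, with a median log2 fold change of -1.09, and their part in these values was not tested.

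Several links of the cascade were near the limit of detection, and 17 of the 47 listed genes could not be tested. None of these 17 exceeded 23 reads in a library, and 10 stayed under 10 reads in all 6. C5, the source of the ligand of C5ar1, held 8, 11 and 6 reads in HI 1, 2 and 3 against 4, 4 and 9 in the controls. Cfd, the protease that activates factor B, held 7, 5 and 20 reads in the HI libraries against 4, 6 and 6 in the controls. Among pore components C8a, C8b and C9 held at most 3 reads in any library, too few to show a difference at this depth. Transcripts of C4 were split between C4a and C4b, both with shared reads, and neither passed (edgeR adjusted p = 0.807 and 0.124). The genes of this paragraph were picked for mention after their values were seen.

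Some markers of microglia and other immune and glial cells were also higher in HI. Of 10 genes of resting microglia 3 rose, Cx3cr1 and Csf1r among them, and 0 fell, with a median log2 fold change of 0.60. Their summed level was 263 to 397 CPM in HI and 153 to 219 CPM in controls. The log2 ratio of the summed C1q chains to this sum was -1.06, -0.77 and -0.78 in HI 1, 2 and 3, against -2.69, -2.68 and -2.38 in controls 1, 2 and 3. All HI values lay above all controls, and the difference of 1.71, or 3.28-fold, exceeded the SD of 0.16 in HI and 0.18 in controls. The exact permutation test gave p = 0.1, the smallest that 3 against 3 libraries allow (two-sided, 0.3 adjusted over 3 ratios).

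**Figure D3:**
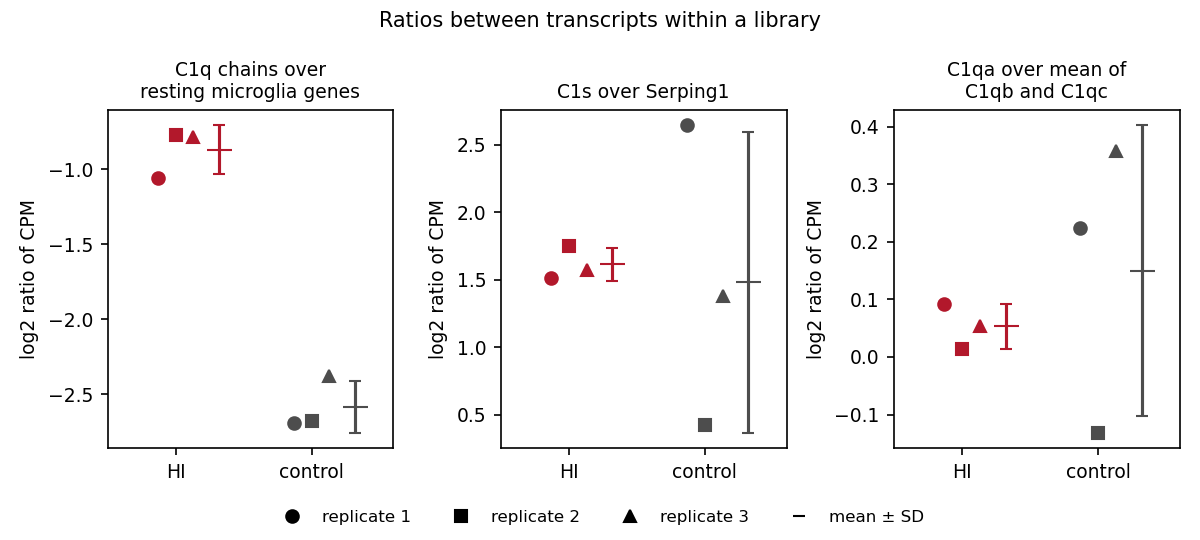
Log2 ratios of CPM within each library, with mean and SD beside the points (n = 3 per group). The ratio of C1q chains to resting microglia genes lies between -1.06 and -0.77 in HI and between -2.69 and -2.38 in controls, while in the other ratios the groups overlap.

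The marker counts that follow stand beside 6.83% of all genes that rose and 7.04% that fell by edgeR. Of 7 border macrophage genes 5 could be tested, 3 of them only through HI libraries. Of the 5, Mrc1, Folr2 and Clec10a rose, the last pair among those that passed through HI libraries only, and Lyve1 did not pass (edgeR adjusted p = 0.542). The list had a summed level of 21.1 to 59.6 CPM in HI and 9.39 to 18.9 CPM in controls. Of 7 neutrophil and monocyte genes 2 could be tested and both rose, Csf3r (log2 fold change 1.6 ± 0.31, SE, edgeR adjusted p = 0.0286) and Plac8, which has shared reads and passed the filter through HI libraries only. The list summed to 9.49 to 15.3 CPM in HI and 2.80 to 4.09 CPM in controls, and the defining genes S100a8, S100a9, Mpo and Cxcr2 held at most 12 reads in any library. Of 6 reactive astrocyte genes 5 were tested and 4 rose and 0 fell, with a summed level of 1372 to 3708 CPM in HI and 205 to 243 CPM in controls. Of 8 general astrocyte genes 1 rose, Aqp4, and 0 fell, with a median log2 fold change of 0.55. Slc1a2, Aldh1l1 and Aldoc had negative log2 fold changes of -1.45, -0.11 and -0.12, and the rest positive ones. This list summed to 1993 to 2672 CPM in HI and 1242 to 2068 CPM in controls, so the groups overlapped. The part of both astrocyte lists in the complement values was not tested. Of 8 choroid plexus genes 0 rose and 0 fell by edgeR, with 1 at an unadjusted p below 0.05 and a median log2 fold change of 3.18. Of 6 tested meningeal fibroblast genes 0 rose and 0 fell, with 0 at an unadjusted p below 0.05 and a median log2 fold change of 1.43. The groups overlapped in the summed level of both lists. The fibroblast sum was 196, 314 and 866 CPM in HI 1, 2 and 3, against 38.9, 273 and 40.5 CPM in controls 1, 2 and 3. HI 3 and control 2, high here within their groups, were also high within their groups for Serping1 and Cfb. HI 3 was however the highest HI library for 8 of the 9 genes. For Cfb controls 1, 2 and 3 held only 10, 18 and 13 reads. With the choroid plexus level as a covariate, edgeR called 1 of the 9 genes, C1qc (adjusted p = 0.048), where 0.234% of all genes were higher in HI. The 9 log2 fold changes in that fit lay between 1.63 and 3.12. Of 6 endothelial genes 1 rose, Cdh5 (edgeR adjusted p = 0.0485), and 0 fell, with a sum of 126 to 234 CPM in HI and 106 to 152 CPM in controls. Of 5 genes of liver-made blood proteins 1 could be tested and did not pass, and their sum was 2.31 to 3.76 CPM in HI and 1.29 to 1.57 CPM in controls, with at most 29 reads of any gene. Of 5 red blood cell genes 0 rose and 0 fell by edgeR, with 0 at an unadjusted p below 0.05 and a median log2 fold change of 1.51. Their sum was 229, 123 and 821 CPM in HI 1, 2 and 3, against 25.3, 395 and 80.9 CPM in controls 1, 2 and 3, so HI 3 and control 2 were again the high libraries. The part of these lists in the complement values was not tested.

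**Figure D4:**
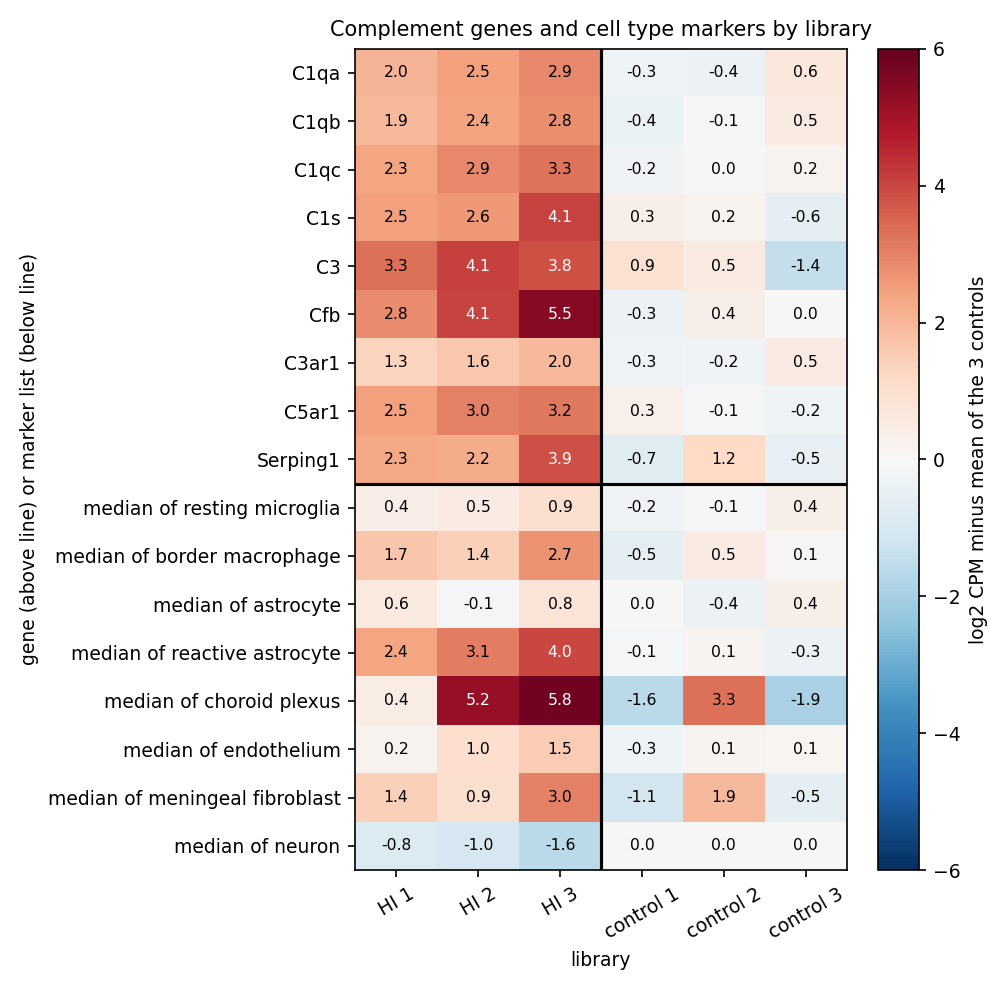
Log2 CPM of each complement gene, and the median over each marker list, minus the mean of the 3 controls, for each library. The 9 genes lie between 1.34 and 5.48 in HI libraries, while the choroid plexus median is 0.45 in HI 1 and 3.28 in control 2.

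The presence of Y-linked reads divided both groups unequally, so differences were also taken within each class, a step added after seeing the data. Between HI 2 and HI 3 and the lone control 3, the log2 difference was 2.04 for C1qa, 3.90 for C1s, 5.37 for C3, 4.80 for Cfb and 1.28 for C3ar1. Between the lone HI 1 and controls 1 and 2 it was 2.37 for C1qa, 2.16 for C1s, 2.60 for C3, 2.82 for Cfb and 1.6 for C3ar1. Since every HI library stood above every control, these differences could only be positive, and their sizes are given as a description. As each comparison has a lone library on one side, its spread is unknown. With the presence of such reads as a term, edgeR called 7 of the 9 genes, all but C1s and Serping1, where 2.23% of all genes were higher in HI.

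Other settings moved the count of the 9 beside the count over all genes. With upper-quartile factors, total counts, a filter of 1 CPM in 3 libraries, the DESeq2 Wald test, or without HI 1, 9 of 9 were called. In those fits 9.67%, 14.4%, 6.95%, 13.9% and 13.7% of all genes were higher in HI. With DESeq2 size factors, no filter, the replicate block, or without control 3, 8 were called, all but Serping1. The shares over all genes were then 6.68%, 4.44%, 5.15% and 3.96%. By limma-voom 6 were called, all but C1s, Cfb and Serping1, where 3.69% of all genes were higher. Without HI 3, 6 were called, all but C3, C3ar1 and Serping1, where 1.62% were higher.

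**Figure D5:**
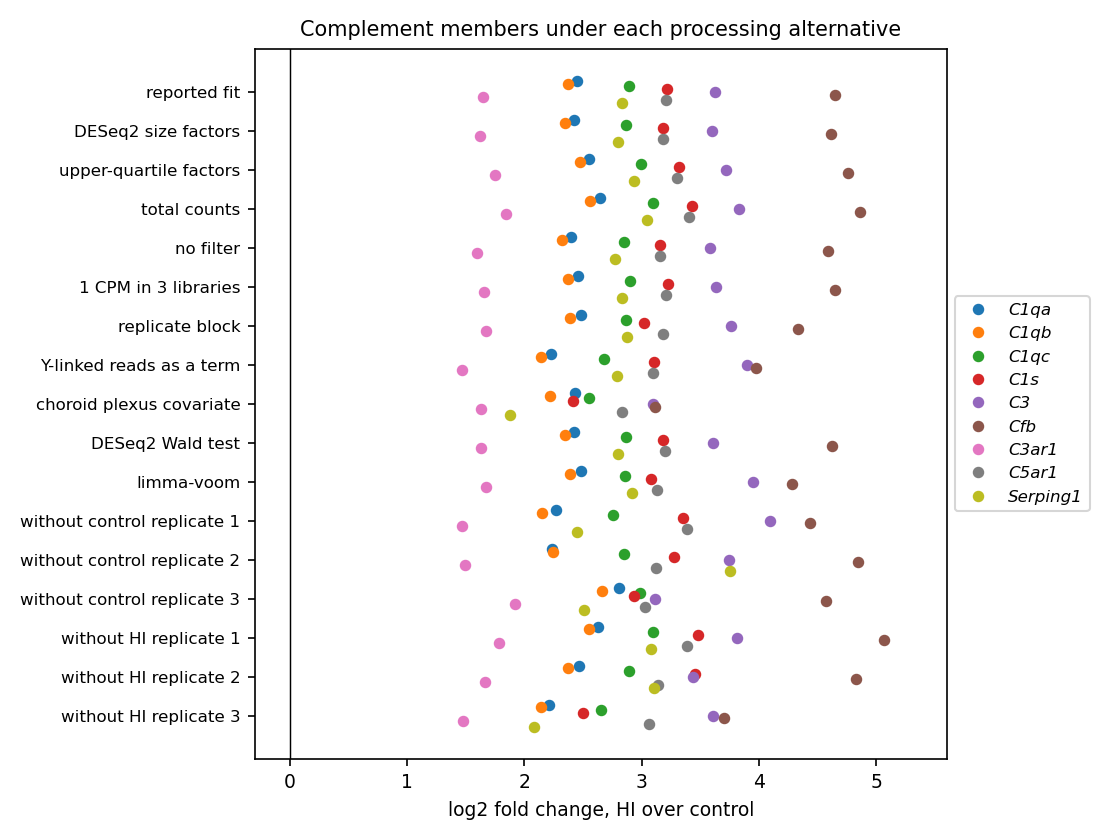
Log2 fold change of HI over control for the 9 genes in the reported fit and in 16 alternative fits. All 144 alternative values are above 0, between 1.47 for C3ar1 without control 1 and 5.07 for Cfb without HI 1.

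The genes with profiles most like the average of the 9 were found by the same root mean square difference over the 6 libraries. The nearest 10 were Cd86, Ifi44, RT1-S3, Itgal, Oas2, Fgl2, Lmod1, Cd74, Fcgr3a and Gfap, at 0.14 to 0.25 log2 units. Oas2 held at most 0.0757 CPM in a control, under the level of 3 reads, and its distance is uncertain. Cd86, a costimulatory protein of antigen-presenting cells, was nearest, with 2.21, 3.34 and 4.79 CPM in HI 1, 2 and 3 against 0.379, 0.515 and 0.374 CPM in controls 1, 2 and 3. Ifi44, induced by interferon, followed at 0.16, with 9.70, 16.8 and 25.4 CPM in the HI libraries against 2.50, 2.72 and 2.17 CPM in the controls. Among the 9 genes themselves C1qc lay closest to the average at 0.18 and C5ar1 next at 0.25, while Cfb at 0.77 and C3 at 0.86 lay farthest. All 10 nearest genes passed the test as higher in HI, where 6.83% of all genes did. Their choice by likeness to 9 genes that rose made this likely. Cd86, Lmod1 and Oas2 were below the filter cutoff of 0.689 CPM in every control, so they could be tested through HI libraries only.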

How the data were processed

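RNA of rat brain tissue was sequenced in 6 libraries, 3 HI and 3 control. The authors deposited estimated counts per gene, unscaled, and 8.87% of entries were not whole to within 1e-09, none of them in the 9 genes. HISAT2 2.1.0, SAMtools 1.10, StringTie 2.2.1 and assembly Rnor 6.0 are named per the submitters' processing notes, and the counting step and its strand setting are not given in the sources used. Each column was matched to its sample by name, and 1 header is misspelled. No library pair was a duplicate, with a chi-square per degree of freedom of 13.4 to 162.

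Estimated counts were rounded, filtered (filterByExpr, minimum count 10), scaled by TMM and tested by edgeR 4.0.16 in R 4.3.3 (quasi-likelihood, two-sided, 1 term for group), and adjusted by Benjamini-Hochberg over 14959 genes at 0.05. The fit was checked on simulated data. Fold changes and SE come from that fit. Profiles use log2 CPM with a prior count of 2. Members, lists, tests and the naming rule (all 9 genes, called genes of the 47 and the next 4, nearest profiles) were chosen with earlier results of these data known. Depth of 13922663 to 14927469 reads puts 3 reads, the limit of a count of 0, at 0.182 to 0.227 CPM, for counting error only. Gene lengths were not used, so levels are not compared between genes. Promoters and neighbours come from RefSeq, GRCr8, and no coordinate was converted. Alternatives were other scalings, filters, DESeq2 1.42.0, limma-voom 3.58.1, the replicate block, added covariates and leaving out each library. Some genes of the lists counted are not reported here by name.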

Additional observations from a re-analysis of the deposited data

How the results depend on the processing

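All 9 genes had positive log2 fold changes in each of 16 alternative fits. In fits with group alone the non-overlapping groups leave no other direction. The all-gene median log2 fold change was 0.10 higher with upper-quartile factors and 0.19 higher with total counts. The number of the 9 called was 1 with the choroid plexus covariate and 0 to 9 when single libraries were left out, and 6 to 9 in the other fits. Without HI 3, C3, C3ar1 and Serping1 were not called, and without control 3 Serping1 was not. Genes changed numbered 2074, against 4200 by DESeq2, 1371 by limma-voom, 774 with Y-linked reads as a term, 83 with the choroid plexus covariate and 0 to 3689 without single libraries. The other complement genes called, 8, became 13 by DESeq2, 4 by limma-voom, 4 with Y-linked reads as a term, 0 with the choroid plexus covariate (edgeR, where 3543 of all genes had an unadjusted p below 0.05) and 0 to 15 without single libraries. The share of calls higher in HI was 49.2%, 64.3% with upper-quartile factors, 74.7% with total counts and 40.3% by limma-voom. The cause of these shifts was not tested.

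The C1q to microglia difference ran from 1.66 to 1.82 without single libraries. Since its groups did not overlap, leaving out a library could not change its sign. The C1s to Serping1 difference ran from -0.40 (without control 2) to 0.71, and that of C1qa to the other chains from -0.237 to 0.007 (without control 3), so the sign of both rests on 1 library. Whether replicate numbers pair the samples cannot be decided from 3 libraries per group. Deviations of same-numbered libraries correlated at 0.239, 0.0731 and -0.146 across genes. With the replicate block 8 of the 9 genes, 6 other complement genes and 1723 of all genes were called, and only Serping1 among the 9 lost its call (edgeR adjusted p = 0.0837). HI 1 and HI 2 correlated best with the control of the same number, while HI 3 correlated best with control 2, at 0.317. Few control reads of C3, Cfb and C5ar1 limit the size of their folds.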

Other observations

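Single complement genes had nearest neighbours of different kinds among non-member genes, by root mean square difference of centred log2 levels over the 6 libraries. C3ar1 lay nearest to Axl, a receptor for apoptotic cells, at 0.11, and to the leukocyte tetraspanin Cd53, also at 0.11. Axl stood at 57.9, 80.6 and 95.4 CPM in HI 1, 2 and 3, against 23.9, 21.4 and 34.5 CPM in controls 1, 2 and 3. C1qb lay nearest to Ptpn6, a phosphatase of blood-lineage cells, at 0.12. C1s lay nearest to Oas2, an interferon-induced enzyme, at 0.19, and next to Vim, an intermediate filament, at 0.26. Oas2 held 0.0757, 0.0736 and 0 CPM in controls 1, 2 and 3, under the level of 3 reads. Its distance therefore rests in part on the prior count of 2, and its log2 fold change was 4.62 against 3.21 for C1s. Cfb was nearest to Tf, the iron carrier transferrin, at 0.33, and Serping1 to Tmem140 at 0.40. Tf stood at 55.4, 189 and 373 CPM in the HI libraries, against 6.21, 17.1 and 6.66 CPM in the controls. C3 had no close neighbour, the nearest being Oas1a, whose reads are partly shared, at 0.43.

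Control 3 differed from the other controls in opposite directions across the complement genes. It held the highest control level of C1qa, C1qb, C1qc and C3ar1, with C1qa at 1.95 times the mean of controls 1 and 2. For C1s, C3 and C5ar1 it was the lowest control, with C3 at 0.154 times and C1s at 0.535 times that mean. Resting microglia genes summed to 219 CPM in control 3, against 153 and 165 CPM in controls 1 and 2. Their part in these differences was not tested.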
